A study of Homo sapiens with 12 samples.

Results

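The control libraries of 2 cell lines of triple-negative breast cancer, BT-549 and SUM149, were compared gene by gene. They were taken by label alone: the 3 BT-549 and the 3 SUM149 libraries whose titles carry CshRNA, 6 of the 12 libraries of the series. Triple-negative tumours lack estrogen receptor, progesterone receptor and HER2, and both lines are established cultures from such tumours. The other 6 libraries, 3 of each line, came from cells with MUC1shRNA, a hairpin RNA directed at the transmembrane mucin MUC1, and were used here only to see whether the line difference recurred in cells the comparison did not use. Per the series' design text, each line was stably transfected with its hairpin and RNA came from 3 separate sets of cells. In the BT-549 controls the label vector stands beside CshRNA, which leaves it unclear whether a hairpin was present. BT-549 was grown in RPMI1640 with serum and insulin, and SUM149 in Ham's F-12 with HEPES, less serum, less insulin and hydrocortisone, a glucocorticoid. Line and medium therefore cannot be told apart in any difference below. With 1 line of each kind, the values describe these 2 cultures and not a class of tumours, and p-values measure only the spread between the sets of a line.

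Epithelial cells are held together by E-cadherin, tight junctions and desmosomes and carry keratin filaments, under transcription factors such as GRHL2, OVOL1 and OVOL2 and the splicing factors ESRP1 and ESRP2. Mesenchymal cells lack most of these, carry vimentin filaments and secrete collagen and fibronectin. The repressors ZEB1 and ZEB2 silence epithelial genes, and microRNAs of the miR-200 family and miR-205 in turn silence ZEB1 and ZEB2. Basal cells of the breast epithelium add keratins 5 and 14, the transcription factor p63 (TP63) and hemidesmosomes, which anchor them to the basement membrane. BT-549 is known as a line of mesenchymal character, and SUM149 as a basal line derived from an inflammatory breast cancer.

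The control libraries held 16332364 to 20745835 counts in BT-549 and 19392422 to 24140623 in SUM149. Levels are given as CPM, counts per 1000000 counts of a library total adjusted by TMM, and are comparable between libraries but not between genes of different length. The first principal component held 95.61% of the variance of the 6 libraries and separated the lines. SUM149 libraries gave more of their counts to mitochondrial transcripts (5.38% to 6.46%) than BT-549 libraries (3.06% to 4.61%), and more to long intergenic noncoding RNAs (0.428% to 0.443% against 0.213% to 0.264%).

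One library stands apart. SUM149 CshRNA 3 held several transcripts typical of prostate epithelium at levels the other SUM149 controls did not reach. Of 20 prostate markers listed after the values were seen, 11 had at least 10 counts there and were 4-fold or more above both other SUM149 controls, and 9 did not meet this, among them PCA3 and OR51E2 with 0 and 1 counts and SLC45A3 with similar levels in the 3 SUM149 controls. The summed level of the 20, before TMM adjustment, was 510 CPM in that library, 69.0 and 76.4 in SUM149 CshRNA 1 and 2, and 103 to 130 in the BT-549 controls. KLK2, KLK3 and KLK4, kallikrein proteases of prostate secretion, FOLH1, the prostate-specific membrane antigen, and HOXB13, a prostate homeobox gene, are 5 of the 11 and together reached 171 CPM there. They stood at 0 and 0.361 in SUM149 CshRNA 1 and 2 and at 0.306 to 1.06 in the BT-549 controls. The SUM149 MUC1shRNA libraries held 4.29 to 14.3. In SUM149 CshRNA 3, 44 genes of at least 10 CPM were 4-fold or more above both other SUM149 controls, against 0 to 3 such genes in each of the 5 other control libraries. The same library also held counts of some genes high in BT-549. A set of 46 genes was chosen with at least 50 CPM in BT-549 CshRNA 1 and 2 and at most 5 counts in each of SUM149 CshRNA 1 and 2, which fixes the low sums of the latter at 69 and 73 counts. In SUM149 CshRNA 3 the set summed to 6141 counts, 3.05% of the BT-549 level, but unevenly: 17 genes had over 20 counts, 25 had 5 or fewer and 11 had 0, COL1A2, CXCL5, GJA1 and THY1 among them, and the median gene was at 0.157%. In BT-549 CshRNA 3, 71 genes chosen in the same way for SUM149 summed to 485 counts, 4 of them having over 20, against 93 and 61 in the libraries used to choose them. The source of these transcripts was not tested. Every fit below holds all 6 libraries, and where SUM149 CshRNA 3 moved the call or the fold of a gene described by over 1.5 times, the value without it or its own counts are given.

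**Figure D1:**
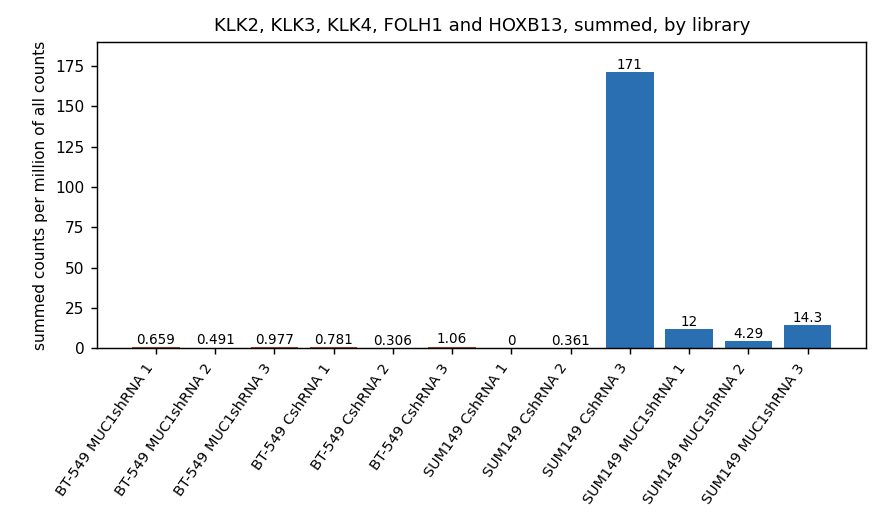
Summed level of KLK2, KLK3, KLK4, FOLH1 and HOXB13 in each of the 12 libraries, in CPM of all counts. SUM149 CshRNA 3 stands at 171, and the 3 SUM149 MUC1shRNA libraries at 4.29 to 14.3, above the 8 other libraries at 0 to 1.06.

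The 2 lines differed at most expressed genes. Of 15155 genes with enough counts for edgeR's filterByExpr, 12544 passed edgeR's quasi-likelihood test at a Benjamini-Hochberg adjusted p below 0.05, which is 82.8% of the genes tested. They comprised 5986 higher in BT-549 (39.5%) and 6558 higher in SUM149 (43.3%). Because most genes pass at that threshold, a difference of at least 4-fold was also asked for. It left 1364 genes higher in BT-549 (9.00% of those tested) and 2554 higher in SUM149 (16.9%). The 2 groups of libraries did not overlap for 84.7% of genes. The median absolute log2 fold change was 0.92 with a median standard error of 0.11. Fold changes are BT-549 over SUM149, so positive values are higher in BT-549. The median over all genes was -0.07, against which the medians of the gene lists below should be read, as their counts should be against 39.5% and 43.3%, and upper-quartile scaling moved it to -0.20. Without SUM149 CshRNA 3, 12887 of 15495 genes passed (83.2%), 39.9% of the genes being higher in BT-549, and 4-fold differences were found at 27.2%, 1547 genes in BT-549 (9.98%) and 2664 in SUM149 (17.2%). No gene passed the test with opposite directions in the fits with and without that library. At the other end, 3046 genes (20.1%) had a 95% interval lying wholly within 1.5-fold in either direction.

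The transcription factors of the epithelial-to-mesenchymal transition were not all on the mesenchymal side. Of 13 listed factors 11 were tested, 8 were higher in BT-549 and 2 in SUM149. ZEB1 (chr10:31318495-31529814, plus strand, GRCh38) had 1027, 968 and 1081 counts in the BT-549 libraries and 3, 3 and 2 in the SUM149 libraries. All 3 BT-549 libraries lay far above all 3 SUM149 libraries, at 59.9 ± 4.26 against 0.117 ± 0.0256 CPM (mean ± SD, n = 3), which is 8.93 ± 0.16 (standard error) on the log2 scale (edgeR adjusted p = 1.65e-10). ZEB2 was at 55.1 ± 4.68 and 1.02 ± 0.152 CPM, a log2 fold change of 5.76 ± 0.13. PRRX1, a homeobox factor of mesenchyme, had 590, 540 and 506 counts in BT-549 and 0, 2 and 1 in SUM149. TWIST1 was 7.61-fold higher in BT-549. On the other side, SNAI1 (Snail) was 9.67-fold higher in SUM149, at 1.18, 0.803 and 2.63 CPM in BT-549 and 16.0, 16.2 and 13.9 in SUM149 (edgeR adjusted p = 4.43e-06). FOXC2 was not detected in any BT-549 library and had 197, 154 and 133 counts in SUM149, at least 35.0-fold higher there against a floor of 3 counts per library. SNAI2 (Slug) stood at 56.1 ± 17.8 and 45.1 ± 1.36 CPM and did not pass the test (log2 fold change 0.32 ± 0.18, edgeR adjusted p = 0.125).

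Most epithelial regulators were far lower in BT-549. Of 15 tested, 13 were higher in SUM149, 11 of them by at least 4-fold, and none was higher in BT-549. The median log2 fold change was -6.78, or -6.11 with genes at 0 counts put at their bound. GRHL2 (Grainyhead-like 2) had 1, 0 and 1 counts in BT-549 and 1770, 1388 and 1777 in SUM149. OVOL1 and OVOL2, zinc-finger repressors of the mesenchymal programme, had 0 counts in each BT-549 library and 8.16, 7.01 and 9.79 and 13.9, 13.8 and 13.9 CPM in SUM149 CshRNA 1 to 3. The splicing factor ESRP1 stood at 0.237 ± 0.212 against 232 ± 3.90 CPM, -9.81 ± 0.19 on the log2 scale (edgeR adjusted p = 2.24e-10). Both AP-2 factors were shared: TFAP2A stood at 127 and 146 CPM and TFAP2C at 93.7 and 86.9, and neither passed the test with all libraries (TFAP2A passed without SUM149 CshRNA 3, log2 fold change -0.29). EHF, an ETS factor, was raised in the library that stands apart, with 143, 105 and 720 counts in SUM149, and its log2 fold change of -3.52 was -2.06 without that library.

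**Figure D2:**
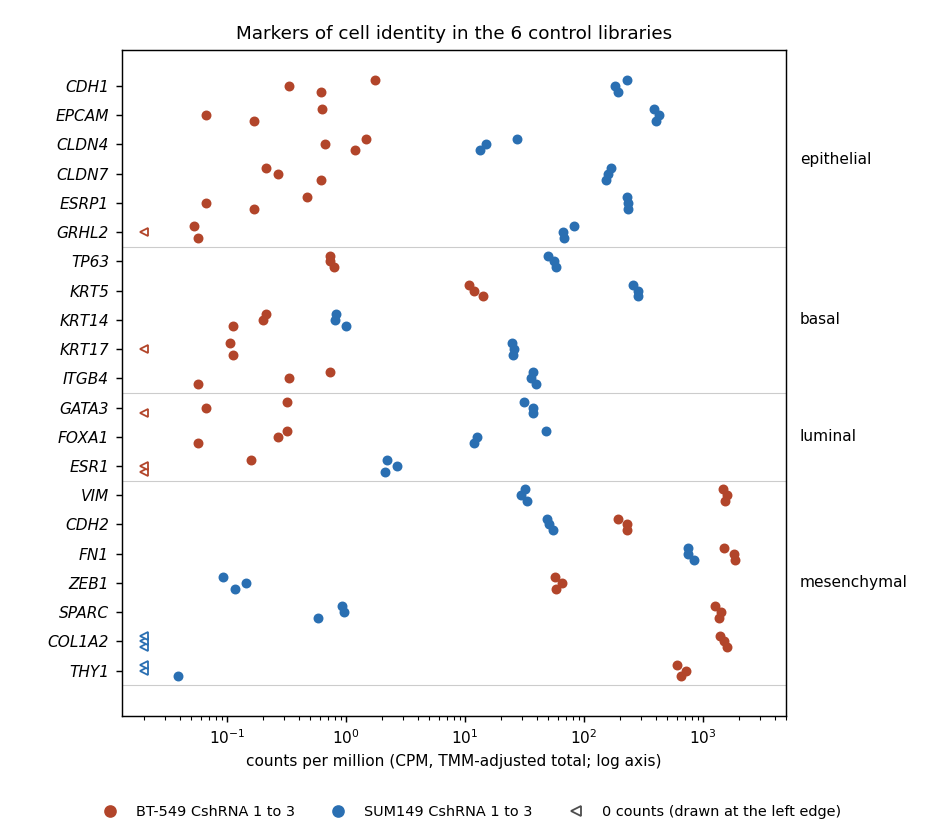
Level of 21 identity markers in CPM (log axis), 1 point per control library, for BT-549 (red) and SUM149 (blue); open triangles at the left edge are libraries with 0 counts. The lines do not overlap for any gene drawn, epithelial, basal and luminal markers being higher in SUM149 and mesenchymal markers in BT-549.

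Host transcripts of miR-205 and of miR-200c and miR-141, miRNAs that act against ZEB1 and ZEB2, followed the same divide. They were looked up after the values above were seen. MIR205HG, the transcript that contains miR-205, had 0 counts in each BT-549 library and 490, 407 and 341 in SUM149. MIR200CHG, which contains miR-200c and miR-141, had 0 in BT-549 and 14, 13 and 24 in SUM149. Against a floor of 3 counts per library, MIR205HG was at least 89.7-fold higher in SUM149 and MIR200CHG, of few counts, at least 3.76-fold. Mature miRNAs were not measured in these libraries. Their sequences from RefSeq (GRCh38.p14) are shown because the seed, bases 2 to 8 in capitals, sets which transcripts they pair with.
hsa-miR-200c-3p: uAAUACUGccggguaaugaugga
hsa-miR-141-3p: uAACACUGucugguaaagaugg
hsa-miR-205-5p: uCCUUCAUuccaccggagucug

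The seeds of miR-200c and miR-141 differ and therefore pair with different heptamers, CAGTATT and CAGTGTT. The longest annotated 3' UTR of ZEB1 (GENCODE 29) held 6 matches to the first and 3 to the second, and that of ZEB2 held 5 and 4. Among 12762 tested genes with an annotated 3' UTR, 1.1% held 3 or more matches to CAGTATT and 1.36% held 3 or more to CAGTGTT. The 3' UTRs of ZEB1 and ZEB2 are 2549 and 5370 bases long, and these shares were not matched for length. The miR-205 heptamer ATGAAGG occurred once in ZEB1 and not in ZEB2, and in 13.7% of genes. The first miR-200c match in ZEB1 starts at base 369 of the 3' UTR and is shown with its neighbouring bases, the match in capitals.
ZEB1 site: tttatcttatCAGTATTatcactctta

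The promoters of epithelial genes were searched for the E-box CAGGTG on either strand, the motif that ZEB and Snail proteins bind. RefSeq gave 35 promoters for 26 of the 48 tested epithelial regulators, junction and desmosome genes, and 41 for 29 of the 43 mesenchymal markers and collagens. CDH1, which encodes E-cadherin, ESRP2, ST14 and CDH3 were among the genes without a promoter and were not searched. In the 250 bases before the start, 14 of the 35 epithelial promoters (40.0%) and 4 of the 41 mesenchymal ones (9.76%) held the motif, against 16.1% of all 15550 promoters of tested genes. TGANTCA, bound by AP-1, was in 5.71%, 7.32% and 4.62%, and GGAATG on either strand, bound by TEAD factors, in 0%, 12.2% and 9.90%. Several promoters can belong to 1 gene, binding was not measured, and a match is letters only. The promoter with the most E-boxes of CLDN7, an epithelial claudin described below, and the single promoter of KRT5, the basal keratin, are shown with E-boxes in capitals. They lie at chr17:7262479-7262728 and chr12:52520395-52520644, both on the minus strand of GRCh38.p14, and hold 4 and 1 E-boxes.
CLDN7: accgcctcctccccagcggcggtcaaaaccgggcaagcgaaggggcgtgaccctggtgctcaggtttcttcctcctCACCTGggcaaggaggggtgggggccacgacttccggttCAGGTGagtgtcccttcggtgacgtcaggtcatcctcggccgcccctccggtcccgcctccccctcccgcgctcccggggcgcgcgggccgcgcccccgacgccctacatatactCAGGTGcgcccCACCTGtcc
KRT5: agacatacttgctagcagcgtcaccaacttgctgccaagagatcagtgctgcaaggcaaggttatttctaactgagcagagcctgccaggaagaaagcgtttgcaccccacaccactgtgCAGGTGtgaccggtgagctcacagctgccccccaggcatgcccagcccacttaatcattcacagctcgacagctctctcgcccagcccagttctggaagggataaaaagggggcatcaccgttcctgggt

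Genes of epithelial junctions were higher in SUM149 with 1 exception. Of 21 tested, 20 were higher in SUM149, 17 by at least 4-fold, and the median log2 fold change was -6.76 (-8.43 without BT-549 CshRNA 3). CDH1, E-cadherin (chr16:68737225-68835548, plus strand), stood at 0.621, 0.334 and 1.74 CPM in BT-549 and 192, 181 and 232 in SUM149, -7.73 ± 0.27 on the log2 scale (edgeR adjusted p = 6.20e-09). EPCAM, an epithelial adhesion molecule, had 3, 1 and 12 counts against 10422, 9001 and 8346, which is 1285-fold, and CLDN7 was at 0.366 ± 0.222 against 160.3 ± 8.94 CPM. The membrane protease matriptase (ST14) had 1, 0 and 1 counts in BT-549 and 981, 785 and 1104 in SUM149. Its inhibitor SPINT1 had 0, 1 and 1 and 3203, 2648 and 2890. RAB25, a trafficking GTPase of epithelia, and the protease PRSS8 had 0 counts in all 3 BT-549 libraries and were at least 176- and 130.4-fold higher in SUM149. The exception was claudin 1 (CLDN1), at 172 ± 35.7 CPM in BT-549 and 55.9 ± 1.78 in SUM149 (log2 fold change 1.62 ± 0.14, edgeR adjusted p = 2.65e-06). P-cadherin (CDH3) was present in both lines, at 132 and 298 CPM. OCLN, occludin, was low in both at 1.51 and 2.63 CPM and did not pass the test without SUM149 CshRNA 3 (log2 fold change -0.53, edgeR adjusted p = 0.0951, against -0.82 and 0.0389 with it).

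All 12 tested desmosome genes were higher in SUM149, 11 by at least 4-fold. Desmoplakin (DSP), which links desmosomes to keratin, stood at 4.12, 3.14 and 6.10 CPM in BT-549 and 544, 491 and 456 in SUM149. Plakophilin 1 (PKP1) had 0, 0 and 1 counts in BT-549 and 1866, 1399 and 1366 in SUM149, and desmoglein 3 (DSG3) 0, 0 and 2 and 1569, 1235 and 1065. Desmoglein 2 (DSG2) was the 1 member under 4-fold, at 115 against 288 CPM (log2 fold change -1.33 ± 0.09).

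Most keratins were higher in SUM149, and several were carried by both lines. Of 10 tested basal and stratified keratins, 8 were higher in SUM149, each by at least 4-fold, and 2 did not pass the test. KRT5 stood at 14.1, 11.8 and 10.8 CPM in BT-549 and 286, 283 and 258 in SUM149. KRT14, its partner in the basal layer, was close to the limit of detection in both lines, with 2, 3 and 4 counts in BT-549 and 26, 17 and 18 in SUM149 (log2 fold change -2.31 ± 0.36, edgeR adjusted p = 1.84e-04). The hair keratin KRT81 was the most abundant of the list, at 2508 ± 215 CPM in SUM149. In BT-549 it had 10, 7 and 135 counts, the highest in the library with raised SUM149 transcripts. KRT6A and KRT17 were at 288 ± 6.87 and 25.4 ± 0.325 CPM in SUM149 and below 1 CPM in every BT-549 library. KRT6A and KRT6B, and KRT81 and KRT83, are near-identical copies, so the split of reads within each pair is uncertain. Simple-epithelium keratins were not restricted to SUM149. KRT18 was at 293 ± 27.9 and 396 ± 14.4 CPM, -0.44 ± 0.07 on the log2 scale (edgeR adjusted p = 3.74e-04), while its usual partner KRT8 differed by -3.65 on the log2 scale, at 44.9 against 565 CPM. KRT19 was below 1 CPM in every BT-549 library and at 175 ± 5.57 CPM in SUM149. KRT7 was at 294 and 1737 CPM. KRT80 stood at 153 and 165 CPM and did not pass with all libraries (log2 fold change -0.12, edgeR adjusted p = 0.175, against -0.18 and 0.0231 without SUM149 CshRNA 3).

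The hemidesmosome list divided evenly, 5 members being higher in each line. LAMB3, a chain of laminin-332, was 149.9-fold higher in SUM149, and integrin beta 4 (ITGB4) stood at 0.0564, 0.334 and 0.737 CPM in BT-549 and 39.7, 35.5 and 37.0 in SUM149. The members higher in BT-549 were ITGA6, ITGA3, CD151, PLEC and DST, with log2 fold changes of 0.30 to 1.27, and are carried by many cell types. Genes listed for the cornified envelope, a structure of terminally differentiated skin, were mostly below the count filter: 4 of 19 were tested, all higher in SUM149. The list summed to 41.9 CPM in SUM149 and 1.62 in BT-549. Much of this in SUM149 came from a protease inhibitor, SLPI, at 22.4 CPM there and 0.206 in BT-549.

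Mesenchymal markers were higher in BT-549 for 20 of 26 tested, 16 of them by at least 4-fold, with a median log2 fold change of 2.49. Vimentin (VIM, chr10:17228259-17237593, plus strand) stood at 1541, 1593 and 1456 CPM in BT-549 and 33.3, 29.7 and 32.0 in SUM149, 5.59 ± 0.08 on the log2 scale (edgeR adjusted p = 8.50e-11). Of its exon bases, 24.4% overlap a gene on the opposite strand, and the strand setting of the counting is not given. ACTA2, ALDH1A3, AXIN2, CHD4, IL6, OVOL1, PLAU and TGFB2 also share over 20% of their exon bases with another gene on either strand, which makes their counts less certain. SPARC, a matrix glycoprotein, had 24149, 21009 and 24015 counts in BT-549 and 15, 20 and 20 in SUM149, a log2 fold change of 10.70 ± 0.13. THY1, a surface glycoprotein of fibroblasts, had 11609, 10721 and 11557 against 1, 0 and 0. FSTL1, a secreted follistatin-like protein, was 71.3-fold higher in BT-549 and the collagen receptor DDR2 172-fold. Other classical markers were expressed by both lines. N-cadherin (CDH2) was at 216 ± 20.7 CPM in BT-549 and 51.3 ± 3.05 in SUM149 (log2 fold change 2.07 ± 0.08, edgeR adjusted p = 1.77e-08), and fibronectin (FN1) at 1721 ± 202 and 773 ± 54.0 (log2 fold change 1.15 ± 0.09). Decorin (DCN) was higher in SUM149, with 0, 0 and 1 counts in BT-549 and 88, 89 and 72 in SUM149, and so was S100A4 (log2 fold change -0.59 ± 0.10). FAP, TNC, ACTA2 and MYL9 did not pass the test. Tenascin C (TNC) had a 95% interval of -0.20 to 0.17 on the log2 scale.

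Most collagen chains were higher in BT-549. Of 17 tested chains, 13 were higher in BT-549, 8 of them by at least 4-fold, and 4 were higher in SUM149, 3 of them by at least 4-fold. COL1A2 had 27890, 22511 and 26405 counts in BT-549 and 0 in each SUM149 library, at least 10411-fold higher against a floor of 3 counts per library. Its partner chain in type I collagen, COL1A1, was detected in both lines, at 1105, 1008 and 1029.6 CPM in BT-549 and 39.0, 34.2 and 28.3 in SUM149. COL3A1 and COL5A2 were 1234- and 137-fold higher in BT-549. COL5A1 had 0, 1 and 74 counts in SUM149, nearly all in the library that stands apart, and its log2 fold change with all libraries was 9.30. In SUM149, COL6A3 stood at 236 ± 21.5 CPM against 4.77 ± 1.14 in BT-549, although the other chains of type VI collagen, COL6A1 and COL6A2, were higher in BT-549. COL7A1, the anchoring fibril collagen of stratified epithelia, was 40.1-fold higher in SUM149.

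Of 12 tested matrix proteases and inhibitors, 8 were higher in BT-549, each by at least 4-fold. The membrane protease MMP14 stood at 316 against 11.5 CPM and urokinase (PLAU) at 179 against 13.5. Tissue plasminogen activator (PLAT) was 24.9-fold higher in SUM149. Maspin (SERPINB5), a serpin of epithelial cells, was at 0 counts in BT-549 and 121, 128 and 119 CPM in SUM149.

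**Figure D3:**
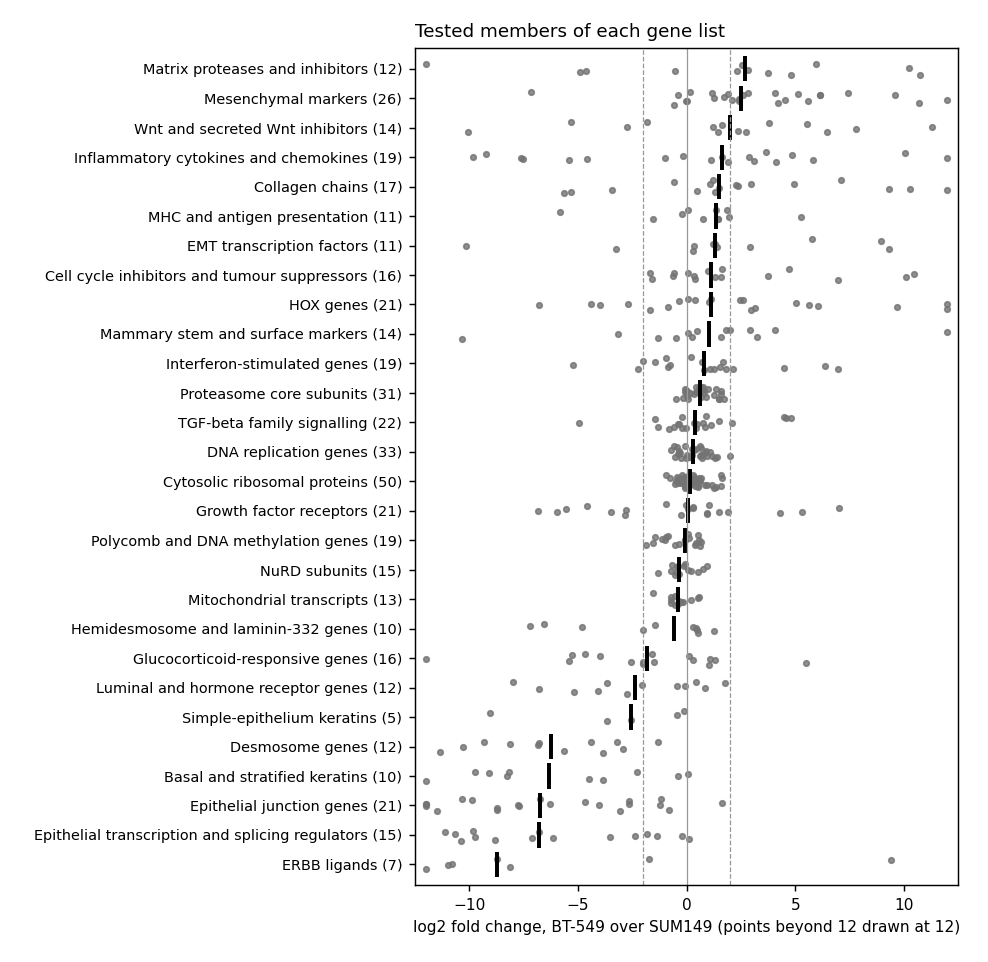
Log2 fold change, BT-549 over SUM149, of each tested member (grey points) of 28 gene lists, with the list's median (black bar) and its number of tested members in brackets; dashed lines mark 4-fold. Points beyond 12 are drawn at 12, and genes at 0 counts in 1 line have fitted values that are no bound. The medians of ERBB ligands, epithelial regulators, junction, desmosome and luminal genes and both keratin lists lie left of the dashed lines and those of mesenchymal markers and matrix proteases right of them. Those of hemidesmosome genes (-0.57), collagen chains (1.5) and the housekeeping lists lie between the lines.

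Some genes were detected in 1 line only, with a mean of at least 5 CPM there and at most 3 counts in each library of the other line. There were 111 such genes in BT-549 and 296 in SUM149. Without SUM149 CshRNA 3 the counts were 185 and 290, so the number for BT-549 rests on that library. The number for SUM149 may likewise depend on BT-549 CshRNA 3, where SUM149 genes were raised, and was not recounted without it. With all 6 libraries, besides COL1A2 and THY1, the most abundant in BT-549 were CXCL5, a neutrophil chemokine, at 358 ± 61.8 CPM, UCHL1, a ubiquitin hydrolase of neurons, at 309 ± 11.4, GJA1, the gap-junction protein connexin 43, at 245 ± 51.8, and WNT5B at 198 ± 8.70. CXCL5 and GJA1 had 0 counts in every SUM149 library. Without SUM149 CshRNA 3 the order changed: COL5A1 at 699 CPM, CDKN2A at 543 and FBLN2 at 465 stood above CXCL5, each over 3 counts in that library alone. In SUM149 the most abundant were DMBT1, a secreted mucosal protein, at 273 ± 11.5 CPM, the calcium-binding protein S100A14 at 223 ± 21.6 and PROM2, a prominin of epithelia, at 128 ± 9.75. SPINT1, SERPINB5 and the calcium-binding protein S100P followed, the last at 112 ± 7.70 CPM. DMBT1 was at least 1359-fold higher in SUM149.

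Among protein-coding genes averaging 20 CPM or more in 1 line and holding 10 or more counts in all in the other, the largest differences in favour of SUM149, besides EPCAM, ESRP1 and keratins, were in PTPRU, a receptor phosphatase, SMOC1, a matrix protein, MGST1, a microsomal glutathione transferase, PDE3A, a phosphodiesterase, MYO5B, a myosin motor, the secreted protein DMKN and the translation factor EIF2D. Genes with fewer counts in BT-549, such as AREG, SPINT1 and GRHL2, had larger fitted values (-13.36, -11.47 and -10.65). The log2 fold changes of the 7 ran from -9.96 to -8.78. In BT-549, PTPRU had 1, 0 and 12 counts, SMOC1 2, 1 and 11, and MGST1 4, 2 and 33. DMKN had 1, 0 and 9 and EIF2D 1, 0 and 10. These genes met the limit of 10 counts only through BT-549 CshRNA 3, where SUM149 genes were raised. Their furthest log2 fold changes under an alternative were -11.28 (DMKN) to -12.79 (PTPRU). PDE3A (9, 6 and 8 counts) and MYO5B (2, 5 and 6) were spread over the libraries, and reached -9.24 and -9.21. EIF2D stood at 0.0564, 0 and 0.526 CPM in BT-549 and 95.4, 94.7 and 97.2 in SUM149. By the same limits the largest in favour of BT-549, besides SPARC, COL3A1, CDKN2A and COL5A1, included those in FBLN2 (fibulin 2), NRG1, CREB3L1, a membrane-bound transcription factor, SMARCA1, a chromatin remodeller, SYT11, IGFN1 and RFLNA, from 9.85 down to 8.31. SMARCA1 had 2707, 2310 and 2670 counts in BT-549 and 3, 4 and 11 in SUM149, and its log2 fold change of 9.12 was 9.90 without SUM149 CshRNA 3. FBLN2 was raised in SUM149 CshRNA 3, with 2, 2 and 30 counts, and its log2 fold change of 9.85 was 12.31 without it.

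Both lines expressed the EGF receptor at a similar level and differed in its ligands. EGFR stood at 653, 655 and 575 CPM in BT-549 and 539, 496 and 484 in SUM149, 0.31 ± 0.07 on the log2 scale (edgeR adjusted p = 0.00266). Of 7 tested ERBB ligands, 6 were higher in SUM149, 5 by at least 4-fold, and 1 in BT-549. Amphiregulin (AREG) had 1, 2 and 4 counts in BT-549 and 39541, 33746 and 28834 in SUM149, 1487 CPM there. TGFA, EREG, BTC and EPGN, further ligands of EGFR, were present at up to 149 CPM in SUM149 and below 1 CPM in every BT-549 library. The exception was neuregulin 1 (NRG1), a ligand of ERBB3 and ERBB4, with 2447, 1969 and 2322 counts in BT-549 and 5, 4 and 4 in SUM149. ERBB3 itself was 62.3-fold higher in SUM149, at 0.979 against 61.8 CPM, so ligand and receptor were high in different lines.

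Across 21 tested growth factor receptors, 9 were higher in each line and 3 did not pass. The fibroblast growth factor receptors divided by member: FGFR1 (163 against 8.22 CPM) and FGFR2 (27.3 against 0.690) were higher in BT-549, and FGFR4 (1.37 against 9.97) in SUM149. FGFR2 had 8, 8 and 30 counts in SUM149, and its log2 fold change of 5.33 was 6.30 without SUM149 CshRNA 3. The paralogous receptors of WNT5A also divided, ROR1 being 3.77-fold higher in BT-549 and ROR2 115-fold higher in SUM149. The collagen receptor DDR1 was 11.1-fold higher in SUM149, the reverse of DDR2. EPHB2 was 46.7-fold higher in SUM149, and MST1R stood at 1.51 against 36.0 CPM.

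Wnt genes were higher in BT-549 for 10 of 14 tested members, 7 of them by at least 4-fold. WNT5A stood at 31.0 ± 4.45 CPM in BT-549 and 0.363 ± 0.364 in SUM149, and the receptor FZD2 was 14.0-fold higher. AXIN2, a target and inhibitor of the beta-catenin pathway, had 171, 133 and 128 counts in BT-549 and 0, 0 and 12 in SUM149. LEF1, WNT7B and WNT10A were higher in SUM149. The secreted inhibitors divided too, DKK3 being 219-fold higher in BT-549 and SFRP1 3.52-fold higher in SUM149, at 471 CPM. Without SUM149 CshRNA 3 the log2 fold changes of WNT5A and DKK3 moved from 6.44 and 7.78 to 7.63 and 8.58.

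The TGF-beta family list had 11 members higher in BT-549, 5 in SUM149 and 6 that did not pass. The ligands went in opposite directions. TGFB2 stood at 7.67, 8.23 and 6.63 CPM in BT-549 and 251, 231 and 206 in SUM149 (log2 fold change -4.94 ± 0.11), BMP4 at 119 ± 10.9 and 5.24 ± 0.926, and TGFB1 at 86.2 and 51.3. LTBP1, which holds latent TGF-beta in the matrix, was 27.7-fold higher in BT-549 and the co-receptor TGFBR3 23.9-fold (log2 fold change 4.58, and 5.32 without SUM149 CshRNA 3). BMP7 had 134, 107 and 157 counts in BT-549 and 0, 0 and 182 in SUM149. It did not pass with all libraries (edgeR adjusted p = 0.232) and passed without SUM149 CshRNA 3 (adjusted p = 1.58e-09).

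Inflammatory mediators divided between the lines. Of 19 tested, 11 were higher in BT-549, 8 by at least 4-fold, and 7 in SUM149, 6 by at least 4-fold. IL6 stood at 38.9, 42.1 and 43.4 CPM in BT-549 and 0.657, 0.525 and 1.01 in SUM149. CCL2, the monocyte chemokine, had 906, 939 and 870 counts against 0, 3 and 0. CXCL1, CXCL8, CSF1 and LIF were higher in BT-549 by 7.39-, 3.06-, 8.56- and 12.8-fold. Among the 7 higher in SUM149 were 5 genes related to interleukin 1, grouped after their values were seen. IL18 stood at 76.3 CPM, IL1A at 16.4 and the receptor antagonist IL1RN at 15.5, each below 1 CPM in every BT-549 library, and IL1B and IL33 were the others. The remaining 2 were IL24 and TSLP.

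Antigen presentation genes were higher in BT-549 for 7 of 11 tested. B2M, the light chain of class I molecules, stood at 122, 132 and 119 CPM in BT-549 and 28.8, 33.7 and 35.1 in SUM149 (log2 fold change 1.94 ± 0.09). The class I heavy chains are polymorphic and alike, so their counts depend on the alignment, and HLA-C had 430, 330 and 381 against 8, 2 and 29 counts. Interferon-stimulated genes had 11 of 19 tested members higher in BT-549 and 7 in SUM149, against 39.5% and 43.3% of all genes. DDX58, the RNA sensor RIG-I, and ISG15 were 4.43- and 3.54-fold higher in BT-549. SAMD9L had 141, 115 and 82 counts against 1, 3 and 1. BST2 (tetherin), IFI44L and IFIT2 were 4.74-, 37.9- and 3.98-fold higher in SUM149.

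Genes that respond to glucocorticoids in many cells were more often higher in SUM149, the line whose medium held hydrocortisone. Of 16 tested, 10 were higher in SUM149, against 43.3% of all genes, and 5 in BT-549, against 39.5%. FKBP5, a co-chaperone of the glucocorticoid receptor, stood at 16.4, 17.4 and 13.6 CPM in BT-549 and 640.3, 621 and 553 in SUM149, -5.26 ± 0.11 on the log2 scale (edgeR adjusted p = 3.08e-10). TSC22D3 (GILZ), ZBTB16, KLF9, PER1 and DUSP1 were 5.85-, 25.9-, 3.98-, 3.06- and 4.02-fold higher in SUM149. TFCP2L1, a Grainyhead-related factor, had 1, 0 and 5 counts in BT-549 and 16977, 12273 and 10862 in SUM149. Against this direction, ANGPTL4 was 44.5-fold higher in BT-549, and MT2A and CEBPD were higher there by 2.48- and 2.07-fold. The glucocorticoid receptor itself, NR3C1, was 2.06-fold higher in BT-549. The part of the medium in these values cannot be told apart from that of the line.

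Luminal genes were not absent from the basal line. Of 12 tested, 8 were higher in SUM149, 7 by at least 4-fold, and 2 in BT-549, which became 4 of 13 without SUM149 CshRNA 3. GATA3, the luminal transcription factor, stood at 0, 0.0669 and 0.316 CPM in BT-549 and 37.4, 37.4 and 31.3 in SUM149 (log2 fold change -7.97 ± 0.32, edgeR adjusted p = 1.63e-08). ESR1, the estrogen receptor, had 55, 56 and 48 counts in SUM149, a mean of 2.33 CPM, and 0, 0 and 3 in BT-549, and PGR, the progesterone receptor, had 0, 0 and 1 and 0, 0 and 34. The 34 PGR counts all came from SUM149 CshRNA 3. FOXA1 had 309, 264 and 1045 counts in SUM149 and 1, 4 and 6 in BT-549, and its log2 fold change of -6.78 was -5.80 without SUM149 CshRNA 3.

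Of 14 tested stem and surface markers, 8 were higher in BT-549. CD44, the hyaluronan receptor, stood at 1449.9 ± 43.3 CPM in BT-549 and 192 ± 9.29 in SUM149 (log2 fold change 2.92 ± 0.06), and CD24 at 22.3 ± 4.46 and 21.0 ± 1.09 (log2 fold change 0.08, 95% interval -0.23 to 0.38, edgeR adjusted p = 0.605). ALDH1A3, a retinal dehydrogenase of mammary stem-like cells, was 9.54-fold higher in BT-549, and SOX9 8.97-fold higher in SUM149. TP63 stood at 0.754 ± 0.0310 CPM in BT-549 and 54.6 ± 4.12 in SUM149 (log2 fold change -6.17 ± 0.13). MUC1, the target of the hairpin in the other libraries, was the only 1 of 13 mucins that passed the count filter. It stood at 52.3, 54.1 and 54.7 CPM in BT-549 and 16.5, 16.7 and 12.2 in SUM149, 3.54-fold higher in BT-549 (edgeR adjusted p = 3.18e-07).

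No member of the 2 chromatin lists below passed at 4-fold, against 25.9% of all genes. Most members passed the test without that limit, as did 82.8% of all genes. The NuRD complex joins histone deacetylases to CHD remodellers. Of its 15 genes, 4 were higher in BT-549, 8 in SUM149 and 3 did not pass, and none reached 4-fold (median log2 fold change -0.36). MTA1 was at 75.4, 72.1 and 81.3 CPM in BT-549 and 124, 124 and 121 in SUM149, HDAC1 at 252 ± 12.2 and 173 ± 5.00, and CHD4 at 269 ± 8.80 and 345 ± 21.1, although 46.9% of the exon bases of CHD4 are shared with another gene on its strand. MBD3 stood at 59.0 ± 7.35 and 50.7 ± 0.690, with an adjusted p of 0.0455 in edgeR that rose above 0.05 in 10 of 15 alternatives. Polycomb and DNA methylation genes divided 6 to 8 of 19, near the shares over all genes (39.5% higher in BT-549 and 43.3% in SUM149), with 5 that did not pass and none at 4-fold. EZH2 (log2 fold change 0.53), DNMT1 (0.57) and UHRF1 (0.64) were higher in BT-549, and the DNA demethylases TET1 (-1.53), TET2 (-0.85) and TET3 (-1.86) in SUM149.

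Among 16 tested cell cycle inhibitors and tumour suppressors, 11 were higher in BT-549, 5 by at least 4-fold, and 4 in SUM149. CDKN2A, which encodes p16 and ARF, had 9045, 8093 and 10965 counts in BT-549 and 0, 0 and 34 in SUM149. RB1, the target of the kinases that p16 inhibits, was 3.01-fold higher in SUM149, at 27.9 ± 3.21 against 83.9 ± 1.43 CPM. CDKN2C (p18) was 13.4-fold higher in BT-549 and CDKN1A (p21) 3.17-fold higher in SUM149. STK11, which encodes the kinase LKB1, had 1209, 906 and 1365 counts in BT-549 and 22, 17 and 137 in SUM149, a log2 fold change of 4.69 that was 6.32 without SUM149 CshRNA 3.

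CDKN2A lies in a run of neighbouring genes that were all silent in SUM149. Such runs were looked for after the values were seen, as 3 or more neighbouring protein-coding genes, each with at least 1 CPM in 1 line and at most 3 counts in each library of the other, leaving out SUM149 CshRNA 3. The longest of 10 runs silent in SUM149 held 11 genes, from MTAP to LINGO2, and spanned 6.87 Mb of the short arm of chromosome 9 (chr9:21802543-28670286, GRCh38). It contains the methylthioadenosine phosphorylase MTAP, CDKN2A, CDKN2B, DMRTA1, ELAVL2, TUSC1, CAAP1, PLAA, IFT74, C9orf72 and LINGO2. Their summed counts were 20520 to 24952 in the BT-549 controls and 0 and 5 in SUM149 CshRNA 1 and 2. SUM149 CshRNA 3 had 591, which is 2.02% of the BT-549 level, and the SUM149 MUC1shRNA libraries had 2 to 21. On either side KLHL9 and ACO1 were expressed in both lines, KLHL9 at 67.3, 69.9 and 72.0 CPM and ACO1 at 35.3, 33.9 and 39.0 CPM in SUM149. The edge near MTAP was not sharp. HACD4, beyond KLHL9, had 111, 82 and 113 counts in BT-549 and 6, 5 and 3 in SUM149. MIR31HG, not protein-coding and between KLHL9 and MTAP, had 26, 23 and 41 in BT-549 and 0 in each SUM149 library. DNA copy number was not measured here.

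**Figure D4:**
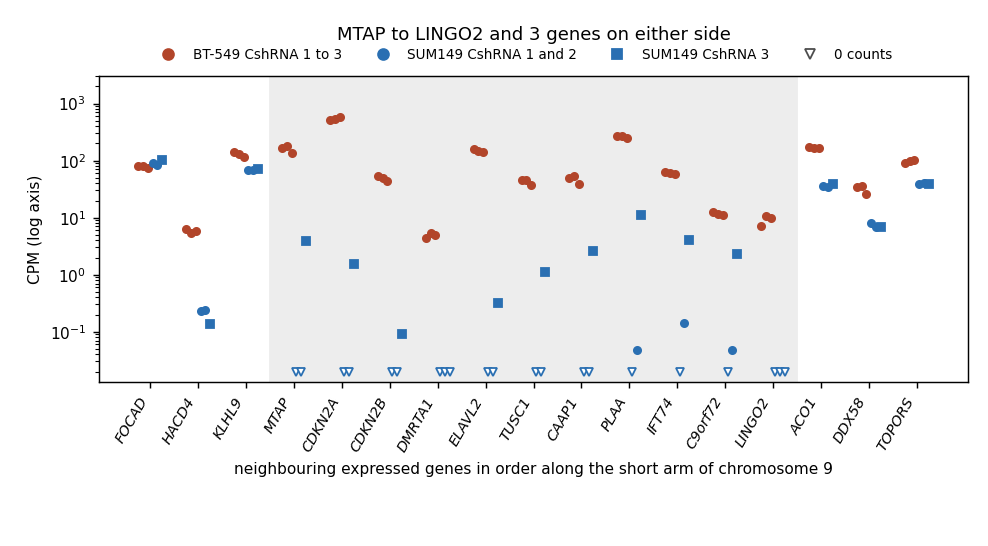
Level in CPM (log axis) of the 11 genes from MTAP to LINGO2 (grey band) and 3 genes on either side, in order along chromosome 9, 1 point per control library; open triangles are libraries with 0 counts. Within the band the BT-549 points lie between 4.46 and 577 CPM, SUM149 CshRNA 1 is at 0 for each gene, and SUM149 CshRNA 3 (squares) is above 0 for 9 of the 11.

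HOX genes, which record position along the body axis, gave another such run. HOXB2 to HOXB7, 6 neighbouring genes of chromosome 17, had 0 counts in SUM149 CshRNA 1 and 2 and 43 in all in CshRNA 3. In BT-549 HOXB2 stood at 36.3, 39.5 and 33.6 CPM and HOXB4 at 30.6, 32.4 and 35.4. Of 21 tested HOX genes 13 were higher in BT-549, 10 by at least 4-fold, and 6 in SUM149. HOXA3 was among the latter, with 0, 0 and 3 counts in BT-549 and 209, 147 and 141 in SUM149. HOXB13 had 15, 5 and 20 counts in BT-549 and 0, 0 and 800 in SUM149, all of the latter in SUM149 CshRNA 3, and did not pass (edgeR adjusted p = 0.0670). Zinc-finger genes of chromosome 19 made up runs of 9, 4, 4 and 4 genes silent in SUM149. The 9 runs silent in BT-549 held 3 genes each, among them SERPINB3, SERPINB4 and SERPINB5 on chromosome 18 and IRX1, C5orf38 and IRX2 on chromosome 5. The limit on counts was stricter for BT-549, since BT-549 CshRNA 3, where SUM149 genes were raised, was kept. The number and length of runs therefore cannot be compared between the lines. In 5 Mb windows with at least 15 tested genes, the median log2 fold change of 383 windows lay between -1.08 and 0.81 for the middle 90%. The lowest was -2.57 on chromosome 7 from 25000001 to 30000000, which includes the HOXA genes. The highest was 2.44 on chromosome 9 from 35000001 to 40000000, where 46 of 50 tested genes were higher in BT-549.

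Genes of general cell function stayed within 4-fold with all 6 libraries. None of 33 DNA replication genes, 50 ribosomal protein genes, 31 proteasome genes and 13 mitochondrial transcripts passed at 4-fold, against 25.9% of all genes. Of the proteasome genes 22 were higher in BT-549 and 1 in SUM149 (median log2 fold change 0.63), PSMC4 and PSMD4 leading at 1.70 and 1.57. Replication genes were higher in BT-549 for 21 of 33, with FEN1, the flap endonuclease, at 182 ± 6.90 against 46.3 ± 6.48 CPM. FEN1 passed at 4-fold without SUM149 CshRNA 3 (log2 fold change 2.10, against 1.98 with it). Ribosomal protein genes had 25 members higher in BT-549 and 14 in SUM149, from RPS6 at -0.96 to RPL37 at 1.62, and processed copies of these genes make their counts uncertain. Of the mitochondrial transcripts 8 of 13 were higher in SUM149, MT-ND1 by 2.92-fold. The abundant genes closest to equal were gamma-actin (ACTG1), at 3736 ± 79.4 and 3708 ± 240 CPM (log2 fold change 0.01 ± 0.07, edgeR adjusted p = 0.885), YBX1 and the chaperone HSP90AB1, whereas GAPDH was 1.35-fold higher in BT-549. Direction under upper-quartile scaling is less certain for all these small differences, since that scaling moves the median of all genes from -0.07 to -0.20 on the log2 scale.

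Markers of other cell types were mostly at or near 0. Of 14 leukocyte markers 4 were tested, and the defining genes CD3D, CD3E, CD2 and MS4A1 had 0 counts in every control library. The summed level of the list was 5.08 to 6.66 CPM in BT-549 and 9.23 to 10.1 in SUM149. Of 10 endothelial markers 3 were tested, with summed levels of 11.6 to 13.0 and 39.8 to 42.4 CPM. PECAM1 (CD31), usually a mark of endothelium and platelets, accounted for most of the latter, with 768, 631 and 570 counts in SUM149 and 1, 1 and 1 in BT-549, while CDH5 (VE-cadherin), a defining gene of endothelium, had 1 count in SUM149 CshRNA 3 and 0 in the other 5 control libraries. Of 13 neural and melanocyte markers 8 were tested, 2 being higher in BT-549 and 4 in SUM149, with summed levels of 61.5 to 74.5 and 87.3 to 93.4 CPM. SNAP25, a synaptic protein, was 10.9-fold higher in BT-549. Of 21 cancer-testis antigens only PRAME was tested. It had 81, 65 and 83 counts in BT-549 and 0, 0 and 54 in SUM149, and MAGEA1 and PAGE1 were seen in SUM149 CshRNA 3 alone, with 331 and 368 counts.

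The line difference recurred in the MUC1shRNA libraries, which share no sample with the controls. MUC1, the target of the hairpin, stood there at a mean of 4.57 CPM in BT-549 and 0.624 in SUM149, below the control levels given above. Of the 3918 genes past the test and at least 4-fold apart in the controls, 3143 were also tested there. The direction was the same for 3115, of which 3076 passed the test, and 20 passed in the opposite direction. A smaller number, 2523, passed in the same direction and were again at least 4-fold apart. The size was not the same throughout: 1088 of the 3143 (34.6%) passed an interaction test over all 12 libraries, against 6194 of all 15649 genes tested (39.6%). CDH1 differed by -7.26 on the log2 scale in the MUC1shRNA libraries and -7.73 in the controls, and VIM by 5.58 and 5.59, without passing the interaction test (edgeR adjusted p = 0.400 and 0.999). The TP63 difference was -1.70 with MUC1shRNA and -6.17 in the controls, an interaction of 4.48 ± 0.27 (edgeR adjusted p = 1.52e-08). For FN1 the difference was 1.15 in the controls and -0.51 with MUC1shRNA, an interaction of -1.65 ± 0.17 (edgeR adjusted p = 2.63e-06).

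**Figure D5:**
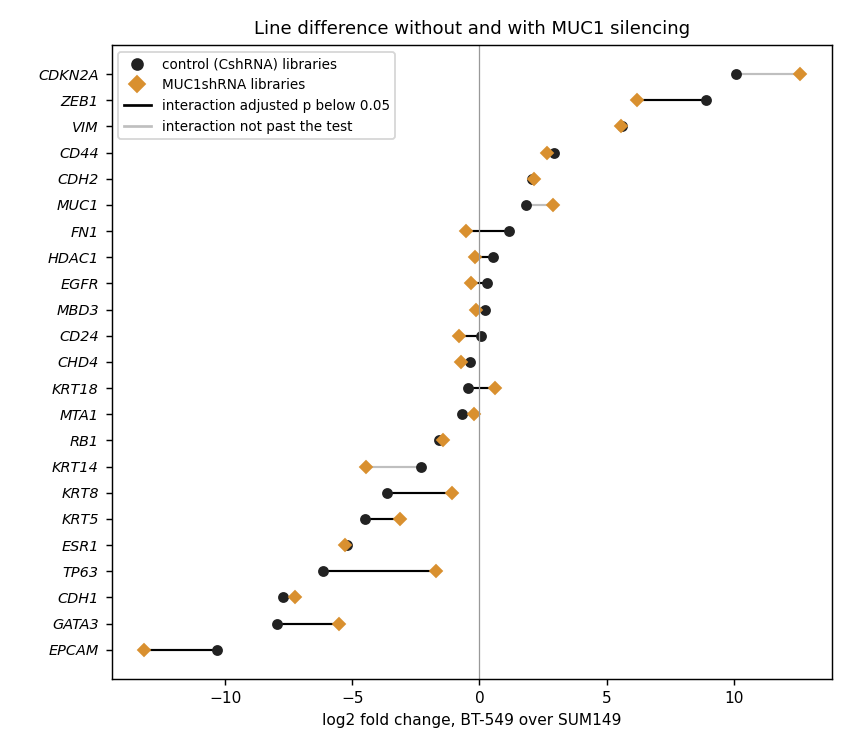
Log2 fold change, BT-549 over SUM149, in the control libraries (black circles) and in the MUC1shRNA libraries (orange diamonds) for 23 genes; black connecting lines mark genes past the interaction test. ZEB1, TP63, KRT8 and GATA3 are nearer to 0 with MUC1shRNA, FN1, EGFR, HDAC1 and KRT18 are among the genes on the other side of 0, and CDH1, VIM and CDH2 do not pass the interaction test.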

How the data were processed

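RNA was sequenced from 3 sets of cells per group, with Trizol extraction and the TruSeq Stranded mRNA kit, per the labels' protocols. The authors deposited unnormalized read counts per Ensembl gene for each library. Per the submitters' processing notes, STAR 2.7.0, CASAVA 1.8.2 and DESeq2 1.24.0 were used, with GRCh38.p7. For the read counting, its annotation and its strand setting, the sources used here give nothing. Of 58037 gene identifiers, 53688 matched GENCODE 29 (GRCh38) exactly and 3741 without their version, and 608 did not match. The 45 copies of pseudoautosomal genes on the Y chromosome were left out. All 12 columns were matched to samples by their names.

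Libraries were grouped by title. Counts of the 6 control libraries were fitted with edgeR 4.0.16 in R 4.3.3: TMM scaling, filterByExpr with default settings, and the quasi-likelihood test, with Benjamini-Hochberg adjustment over all 15155 genes tested. The interaction of line and hairpin was fitted over all 12 libraries. Standard errors are those implied by the test, and fold changes of genes with 0 counts in a line are given as bounds against 3 counts per library. The fit was tested on simulated counts in which a small share of genes had planted changes. That setting does not cover a comparison in which most genes differ, as here. Replicates were checked: chi-square per degree of freedom between libraries of a group ran from 3.80 to 14.5, so none was a copy of another. Counting error alone limits genes of few counts.

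Alternatives were other scalings (RLE, upper quartile), limma-voom (limma 3.58.1), DESeq2 1.42.0, no filter and one of at least 5 CPM in 3 libraries, a test against 2-fold, all 12 libraries in 1 fit, a replicate block and leaving out each library. Leaving out CshRNA 3 of both lines, and recounting genes of 1 line without SUM149 CshRNA 3, were added after the data were seen. The members, the 34 gene lists and all tests were chosen with earlier results of these data known. Genes named are, by rule, the 12 with the largest difference in each direction (at least 20 CPM in the higher line and 10 counts in the lower), the 6 most abundant detected in 1 line, up to 3 per list and direction, 24 identity and chromatin genes and 6 abundant genes. Other list members named in the text, the miRNA hosts, the prostate genes and the gene runs were chosen after their values were seen. Promoter and miRNA sequences are from RefSeq (GRCh38.p14). Results for some genes are not reported here.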

Additional observations from a re-analysis of the deposited data

Results flagged for a closer look

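These results are listed because the line difference was not the same with MUC1shRNA as with CshRNA, by the interaction test over all 12 libraries (edgeR quasi-likelihood, adjusted over all genes). Over all genes 6194 passed it. Values are the line difference (BT-549 over SUM149, log2) with MUC1shRNA minus that in the controls. Among epithelial and basal genes, the interaction was -2.91 ± 0.94 (SE) for EPCAM, 4.48 ± 0.27 for TP63, 1.40 ± 0.12 for KRT5, 2.59 ± 0.11 for KRT8, 1.05 ± 0.13 for KRT18 and 2.44 ± 0.61 for GATA3. EPCAM has 1 to 12 counts in the BT-549 controls, so its value rests on few counts. The same holds for ZEB1, with 3, 3 and 2 counts in the SUM149 controls, and for GATA3, which is near the floor in the BT-549 controls. Among mesenchymal and surface genes it was -2.71 ± 0.41 for ZEB1, -1.65 ± 0.17 for FN1, -0.23 ± 0.08 for CD44, -0.86 ± 0.15 for CD24 and -0.63 ± 0.11 for EGFR. Among NuRD subunits it was 0.48 ± 0.10 for MTA1, -0.36 ± 0.08 for CHD4 and -0.69 ± 0.08 for HDAC1. The SUM149 MUC1shRNA libraries were the shallowest of the series, at 7931614 to 9623924 counts.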

How the results depend on the processing

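Genes past the test numbered 12544 in edgeR's fit and 12218 to 14831 under the other scalings, tools and fits, apart from 9617 with the stricter filter. Testing against a 2-fold difference left 6052. At 4-fold, the stricter filter gave 853 genes higher in BT-549 and 1274 in SUM149, and no filter gave 4263 in SUM149, since the number of low genes tested changed. Leaving out each library gave 12228 to 12887 genes past the test, 1402 to 1547 at 4-fold in BT-549, 2627 to 2806 in SUM149 and 5508 to 6420 past the interaction test. Genes detected in BT-549 alone were 185 without SUM149 CshRNA 3, and in SUM149 alone 290. Library numbers gave no clear sign of pairing, although 3 libraries per line cannot exclude it. Deviations of same-numbered libraries correlated at -0.00049 to 0.0545, and those of other pairs at -0.0505 to 0.00307. The replicate block gave 12431 genes, and 5972 for the interaction.

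Over the members tested with all libraries, list medians changed sign in 3 lists: hemidesmosome genes (0.21) and neural markers (0.17) with the stricter filter, and growth factor receptors with upper-quartile scaling (-0.086) and the stricter filter (-0.046). Leaving out each library put the growth factor receptor median between -0.071 (without SUM149 CshRNA 1) and 0.28 (without SUM149 CshRNA 3). The endothelial median, -0.56 over 3 genes, was 1.00 over the 4 tested without SUM149 CshRNA 3, the added gene being TEK, and -0.58 over the same 3. Another 107 medians of 30 lists moved by more than the spread between libraries with their sign kept, 83 of them by under 0.5 on the log2 scale. Moves of over 1 included the HOX median (1.1, and 2.38 without SUM149 CshRNA 3), the junction and ERBB ligand medians (-6.76 and -8.72, and -8.43 and -11.01 without BT-549 CshRNA 3), the luminal median (-2.39, and -0.53 with the stricter filter) and the endothelial median with the stricter filter (-4.77). PRAME, the single cancer-testis antigen tested, moved from 2.45 to 9.45 without SUM149 CshRNA 3. The cause was not tested. BMI1 and MBD3, both near the threshold, lost their call in 9 and 10 alternatives.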
